A study of Mus musculus with 4 samples.

Results

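The GIMAP family (GTPases of immunity-associated proteins) was followed in recently made thymic regulatory T (Treg) cells through its 8 mouse genes Gimap1, Gimap3, Gimap4, Gimap5, Gimap6, Gimap7, Gimap8 and Gimap9. The members were taken by name, and all 8 were found among the 27998 genes of the count table. The study asked what the cytokines IL-2 and IL-15 do in Treg development. Its samples were thymic Treg cells of mice aged 3 weeks, 1 sample each of Il2 knockout mice (IL2 o/o), Il15 knockout mice (IL15 o/o), Il2 wild-type mice (IL2 wt/wt) and Il15 wild-type mice (IL15 wt/wt). All 4 strains were on the B6 background and carried a Rag2-Gfp reporter, which marks T cells made recently, and a Foxp3-Thy1a reporter, which puts Thy1.1 on cells that express the Treg factor Foxp3. The sort took cells positive for CD4, GFP and Thy1.1 and negative for CD8, and whether a sample pooled several mice is not stated. The cells came as 4 libraries told apart by the barcode suffix 1 to 4, and nothing in the sources used here ties a suffix to a sample. The libraries therefore stayed unassigned, the genotypes were not compared, and the text describes the family across libraries and classes of cells.

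GIMAP proteins are GTP-binding proteins of lymphocytes, related in their GTPase domain to septins. Several sit on intracellular membranes through a C-terminal anchor, and they are known for keeping resting lymphocytes alive. Loss of Gimap5 in mice and rats leads to a lack of T cells in the periphery, and Gimap1 is needed for mature T and B cells in mice. In the thymus several of the genes are known to be turned on late in the making of T cells.

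The 8 genes lie side by side on mouse chromosome 6, at chr6:48647234-48770851 (GRCm38, GENCODE M21), a stretch of 123.6 kb. Gimap3 and Gimap6 are on the minus strand and the other 6 on the plus strand. From 69.7% (Gimap6) to 100% (Gimap7 and Gimap9) of the coding length lay in a single exon, except in Gimap8, the longest member, where the largest coding exon held 31.9%. The 3' counts could tell the members apart: of the 30-base words in the last 400 bases of each transcript, none was shared with another member. Words shared with other genes made up 23.7% of that end in Gimap1, 11.1% in Gimap3 and 7.01% in Gimap8, and none in the other 5. A readthrough gene that overlaps Gimap7, Gimap1 and Gimap5 held 13 UMIs (unique molecular identifiers, each counted as 1 captured RNA molecule) in all cells. Reads over an antisense transcript cannot be told from those of its partner unless counting used strand, which is not stated for these counts.

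RefSeq promoter windows (GRCm38.p6, 250 bases before to 50 after the start site, 300 in all) were found for all 8 members, in 9 windows since Gimap8 has 2. Shown here are those of Gimap3 and Gimap4, the pair with the highest co-detection within cells, of Gimap6, which was called lower in cells with Il2ra, and of Gimap1, Gimap6 and Gimap9, which made up the largest part of the family in immature thymocyte-like cells. Capitals mark CACCC or GGGTG, letters bound by KLF factors such as Klf2, and TTCNNNGAA, the letters bound by STAT5, the factor that IL-2 activates. The windows are chr6:48770802-48771101 (minus strand) for Gimap3, chr6:48684328-48684627 (plus strand) for Gimap4, chr6:48708195-48708494 (minus strand) for Gimap6, chr6:48738797-48739096 (plus strand) for Gimap1 and chr6:48675885-48676184 (plus strand) for Gimap9, each written 5' to 3' in the direction of its gene.
Gimap3: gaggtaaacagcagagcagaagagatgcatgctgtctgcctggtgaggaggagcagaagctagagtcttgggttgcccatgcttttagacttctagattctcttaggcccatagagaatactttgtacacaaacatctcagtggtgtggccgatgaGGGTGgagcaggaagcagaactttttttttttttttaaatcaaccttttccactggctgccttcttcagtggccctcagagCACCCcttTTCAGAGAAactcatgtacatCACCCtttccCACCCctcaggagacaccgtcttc
Gimap4: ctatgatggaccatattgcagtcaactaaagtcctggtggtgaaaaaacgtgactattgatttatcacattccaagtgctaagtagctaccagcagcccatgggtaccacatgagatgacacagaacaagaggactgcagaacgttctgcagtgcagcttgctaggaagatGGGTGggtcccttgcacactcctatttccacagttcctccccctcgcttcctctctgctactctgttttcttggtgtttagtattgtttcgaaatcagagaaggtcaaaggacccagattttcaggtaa
Gimap6: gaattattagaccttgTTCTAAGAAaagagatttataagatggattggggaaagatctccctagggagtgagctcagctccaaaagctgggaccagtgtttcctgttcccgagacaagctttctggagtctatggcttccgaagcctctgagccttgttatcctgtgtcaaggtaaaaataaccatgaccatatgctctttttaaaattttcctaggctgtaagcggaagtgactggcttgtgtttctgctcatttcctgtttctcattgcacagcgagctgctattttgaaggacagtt
Gimap1: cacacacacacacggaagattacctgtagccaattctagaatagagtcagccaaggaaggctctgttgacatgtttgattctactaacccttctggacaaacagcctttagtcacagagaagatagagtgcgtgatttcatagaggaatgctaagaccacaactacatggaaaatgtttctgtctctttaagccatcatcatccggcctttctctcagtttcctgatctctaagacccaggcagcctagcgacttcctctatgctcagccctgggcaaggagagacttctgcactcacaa
Gimap9: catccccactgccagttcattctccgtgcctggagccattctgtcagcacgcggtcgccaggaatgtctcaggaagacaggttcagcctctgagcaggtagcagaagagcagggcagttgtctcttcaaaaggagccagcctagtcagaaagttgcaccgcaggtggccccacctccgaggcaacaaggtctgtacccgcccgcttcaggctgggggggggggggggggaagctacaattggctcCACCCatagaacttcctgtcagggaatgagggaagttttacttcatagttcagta

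Searched on both strands, CACCC was found in windows of 5 members (Gimap3, Gimap4, Gimap5, Gimap8 and Gimap9), against 57.5% of all 32851 promoter windows. TTCNNNGAA, which reads the same on both strands, was found in 4 members (Gimap3, Gimap6, Gimap7 and Gimap8), against 8.30% of all windows. It began 234 bases before the start site in Gimap6 and 5 bases before it in Gimap3. TGTGGT, letters bound by RUNX factors, was found in Gimap1, Gimap4 and Gimap7 (16.8% of all windows), and CTTTGA, bound by TCF and LEF factors, in Gimap4 and Gimap7 (5257 of the 32851 windows), where in Gimap7 it lies inside the TTCNNNGAA match. GTAAACA, bound by FOXO factors, was found in Gimap3 (3.65% of all windows), while CCGGAA (ETS factors, 14.9%) was in no member's window. These are matches of letters and show no binding.

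The 4 libraries held 1609, 2452, 2037 and 2175 cells and 5717732 to 11274713 UMIs, and library 3 was the shallowest per cell (median 2501 UMIs, against 3019 to 3857 in the others). Barcodes shared by 2 libraries numbered 27 and were kept. The Treg label held in part at the RNA level: Ikzf2 had a UMI in 75.7% of cells, Tnfrsf18 in 77.7% and Cd3e in 85.1%, but Foxp3 in 5.06% and Cd4 in 40.5%. Markers of B cells were at 10.1 to 20.4 CPM (UMIs per 1000000) and of epithelial cells at 16.4 to 20.5 CPM in the 4 libraries. The myeloid and dendritic list was at 192 to 237 CPM, nearly all of it Cst3 and Cd74, with Csf1r and Itgax at 0. The list for NK, NKT and gamma delta T cells was at 35.3 to 200 CPM, of which Nkg7 gave 4627 of 4640 UMIs, with Ncr1 at 0. The endothelial list was at 90.5 to 113 CPM, nearly all of it Pecam1, with Emcn at 0. Haemoglobin RNA in library 3 (1873 CPM) came almost wholly from a single cell, with 10398 of the 10787 UMIs of the list. Library 3 also stood apart in Il2ra (the alpha chain of the IL-2 receptor), which stood at 31.1 CPM, against 158 to 181 CPM in the others.

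The family was found in nearly every cell. Between 98.5% and 99.1% of the cells of a library had a UMI of at least 1 member, and the median cell held 4 different members and 8 to 9 GIMAP UMIs. In library 3 the family made up 0.322% of all UMIs, against 0.194%, 0.197% and 0.236% in libraries 1, 2 and 4. Summed over members, that is 3218 CPM in library 3 and 1944 CPM in library 1, a log2 ratio of 0.73. Counting intervals are narrow at these depths, and they cover counting error only.

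Gimap4, a member linked to the death programme of T cells in mice, had 407, 448, 839 and 545 CPM in libraries 1 to 4. Gimap6, whose protein binds the autophagy protein GABARAPL2, had 443, 444, 730 and 513 CPM. Gimap1 had 427, 396, 563 and 476 CPM. Gimap4 stood first over all cells pooled and in libraries 3 and 4, its interval overlapped that of Gimap6 in library 2, and in library 1 it was below Gimap1, with overlapping intervals, and below Gimap6 beyond counting error. Gimap3, a close relative of Gimap5, followed with 307, 311, 509 and 384 CPM. Gimap9 had 162, 169, 218 and 194 CPM. Gimap5, the member with the best known loss phenotype, stood at 116, 120, 129 and 120 CPM, the narrowest range of the family (1.11-fold). Gimap7 had 45.2, 46.9, 164 and 80.8 CPM, the widest range of the family (3.63-fold), and was above Gimap5 in library 3 alone. Gimap8 was the least abundant, with 35.6, 36.9, 66.6 and 46.5 CPM. All 8 members were highest in library 3, and 7 of them lowest in library 1, while Gimap1 was lowest in library 2. With 3' counts, each captured transcript gives its UMI near the end, so the levels were compared between members without a length correction.

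**Figure D1:**
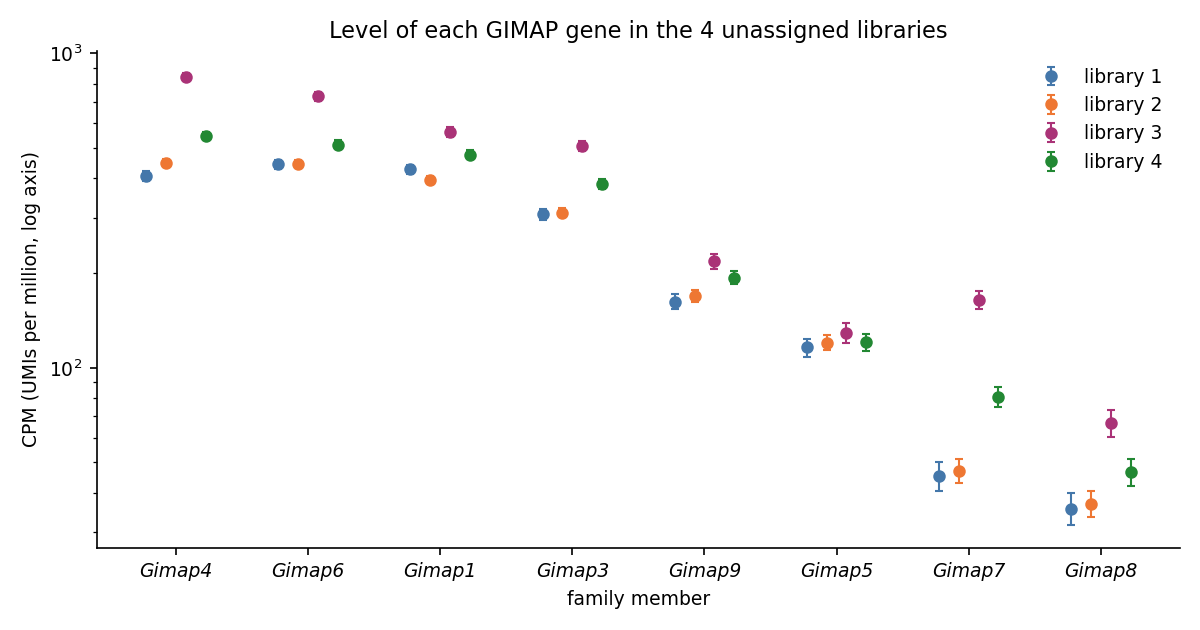
CPM of each member (log axis) in libraries 1 to 4, with 95% Poisson counting intervals. The purple points of library 3 are the highest for every member, from 66.6 CPM for Gimap8 to 839 CPM for Gimap4, and Gimap5 is nearly level across libraries.

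The share of RNA given to the family was mostly lower the more UMIs a cell had, and the libraries lay closer together at matched depth. Library 3 still stayed the highest in each bin below 6000 UMIs. It had 4361 CPM below 2000 UMIs, against 3175 to 3916 CPM in the others, and 2474 CPM at 4000 to 6000, against 1992 to 2000 CPM. Library 2 did not fall between the bin below 2000 UMIs (3175 CPM) and the next. In cells with 2000 to 3000 UMIs the summed level was 3345, 3278, 3872 and 3300 CPM in libraries 1 to 4, and in cells with 6000 UMIs or more it was 1200, 1238, 1167 and 1351 CPM. Counted per cell, the same bins held 8.30, 8.24, 9.57 and 8.29 GIMAP UMIs and 11.8, 11.2, 9.81 and 12.4. The number of GIMAP molecules per cell thus varied much less than the total, and CPM is in part a measure of how much other RNA a cell held. Gimap7 stayed apart at matched depth, with 71.9, 87.4, 206 and 114 CPM in the 2000 to 3000 bin, library 3 again the highest. Gimap4 had 802, 818, 1038 and 830 CPM there.

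Il2ra marks Treg precursors and cells under IL-2, and 2437 of the 8273 cells had a UMI of it. In those cells every GIMAP member stood lower than in the 5836 cells without one, in all 4 libraries. Background for that count is that 24.5% of the 8070 genes tested were lower in all 4 libraries. A gene was called when its CPM ratio, stratified by library, was at least 1.5-fold, its 95% counting interval left out 0 on the log2 scale and all 4 libraries had the same direction. By that rule Gimap6 alone fell, and 2.97% of all genes were called lower. Gimap6 stood at 345, 345, 494 and 367 CPM in cells with Il2ra, against 539, 541, 754 and 617 CPM in cells without, in libraries 1 to 4. No library overlapped: within each, the cells with Il2ra were lower by a log2 ratio of -0.61 to -0.75, and the stratified ratio was -0.67 (-0.72 to -0.62). The share of cells with a Gimap6 UMI was 76.5% with Il2ra and 81.7% without, although the cells with Il2ra were deeper (median 4411 UMIs, against 2783).

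The other 7 members were lower without being called. Gimap1 had a log2 ratio of -0.49, Gimap4 of -0.46 and Gimap8 of -0.42. Gimap3 (-0.34), Gimap7 (-0.33) and Gimap9 (-0.32) followed, and Gimap5 was the least different at -0.18 (-0.28 to -0.08). The median of all tested genes was -0.03. Summed, the family stood at 1633, 1648, 2487 and 1936 CPM in cells with Il2ra, against 2247, 2290, 3296 and 2662 CPM in cells without, a log2 ratio of -0.46 (-0.48 to -0.44). Counted as molecules the order was the opposite, with a mean of 9.71 GIMAP UMIs per cell with Il2ra and 8.91 per cell without. In cells with Il2ra, proliferation markers summed to 807 CPM, against 412 CPM without; their part in the difference was not tested, and without cells holding 2 or more UMIs of those markers the summed log2 ratio was -0.39. Nkg7, a gene of cytotoxic granules, rose 1.94-fold in cells with Il2ra and fell to 0.561-fold in cells with S1pr1; its part in the GIMAP ratios was not tested.

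Since a deeper cell is more likely to show Il2ra and gives a smaller share to the family, the split was repeated within 5 depth bins of equal size in each library. The summed log2 ratio was then -0.10 (-0.13 to -0.08) and no member was called, so the difference was smaller at matched depth. The members also parted. Gimap6 stayed lower at -0.29 (-0.35 to -0.24), in 17 of 18 strata of library and depth, where 0.917% of all genes were lower in at least 17. Gimap1 stood at -0.22 (-0.27 to -0.16), lower in 16 of 18 strata (1.91% of genes in at least 16), and Gimap9 at -0.11 (-0.19 to -0.02), lower in 15 of 18 (3.57% in at least 15). Gimap4 was at -0.01 (-0.06 to 0.04) and Gimap5 at 0.03 (-0.07 to 0.13), with intervals that hold 0. Gimap3 was slightly on the other side at 0.07 (0.01 to 0.13), higher in 10 of 18 strata, and Gimap7 at 0.13 (-0.01 to 0.28). With each cell thinned to 1811 UMIs, Gimap6 was at -0.39 and the sum at -0.15. In the authors' deposited normalized values, the mean of Gimap6 was lower in cells with Il2ra by 0.35 to 0.47 log2 units in the 4 libraries. That of Gimap5 differed by -0.05 to 0.04 and that of Gimap7 by -0.05 to 0.00. The others were lower in all 4: Gimap1 (-0.25 to -0.20), Gimap4 (-0.24 to -0.08), Gimap3 (-0.14 to -0.02), Gimap9 (-0.10 to -0.03) and Gimap8 (-0.07 to -0.01). These values were not split by depth bin, and Gimap3 and Gimap4 did not part from the rest in them as they did within depth bins.

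S1pr1 encodes the sphingosine-1-phosphate receptor by which mature T cells leave the thymus, and 3955 cells had a UMI of it, against 4318 without. Depth was nearly matched here (median 3233 UMIs with S1pr1, 3024 without). The family stood higher in cells with S1pr1, at 2027, 2123, 3549 and 2526 CPM in libraries 1 to 4, against 1855, 1802, 2984 and 2212 CPM in cells without. The summed log2 ratio was 0.21 (0.19 to 0.23), and the same within depth bins. The members did not all share this: Gimap1, Gimap3, Gimap4, Gimap6, Gimap7 and Gimap8 were higher in all 4 libraries (6 of 8, against 16% of the genes tested, 1288 of 8070), while Gimap5 was higher in 3 and Gimap9 in 2. None reached 1.5-fold, and 0.310% of all genes were called higher.

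Gimap3 had the largest ratio, 337, 338, 567 and 431 CPM in cells with S1pr1, against 276, 281, 467 and 343 CPM in cells without. Its log2 ratio was 0.29 (0.24 to 0.34), between 0.27 and 0.33 in the 4 libraries. Within depth bins Gimap3 and Gimap1 were higher in 19 of 20 strata, where 0.719% of all genes were higher in at least 19, and Gimap4 in 18 (1.56% in at least 18). Gimap7 (0.27), Gimap8 (0.25), Gimap6 (0.22), Gimap1 (0.21) and Gimap4 (0.20) came next on the log2 scale. Gimap5 at 0.07 (-0.02 to 0.16) and Gimap9 at 0.03 (-0.04 to 0.11) did not differ beyond counting error. Gimap9 had 183 CPM with S1pr1 and 182 CPM without.

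**Figure D2:**
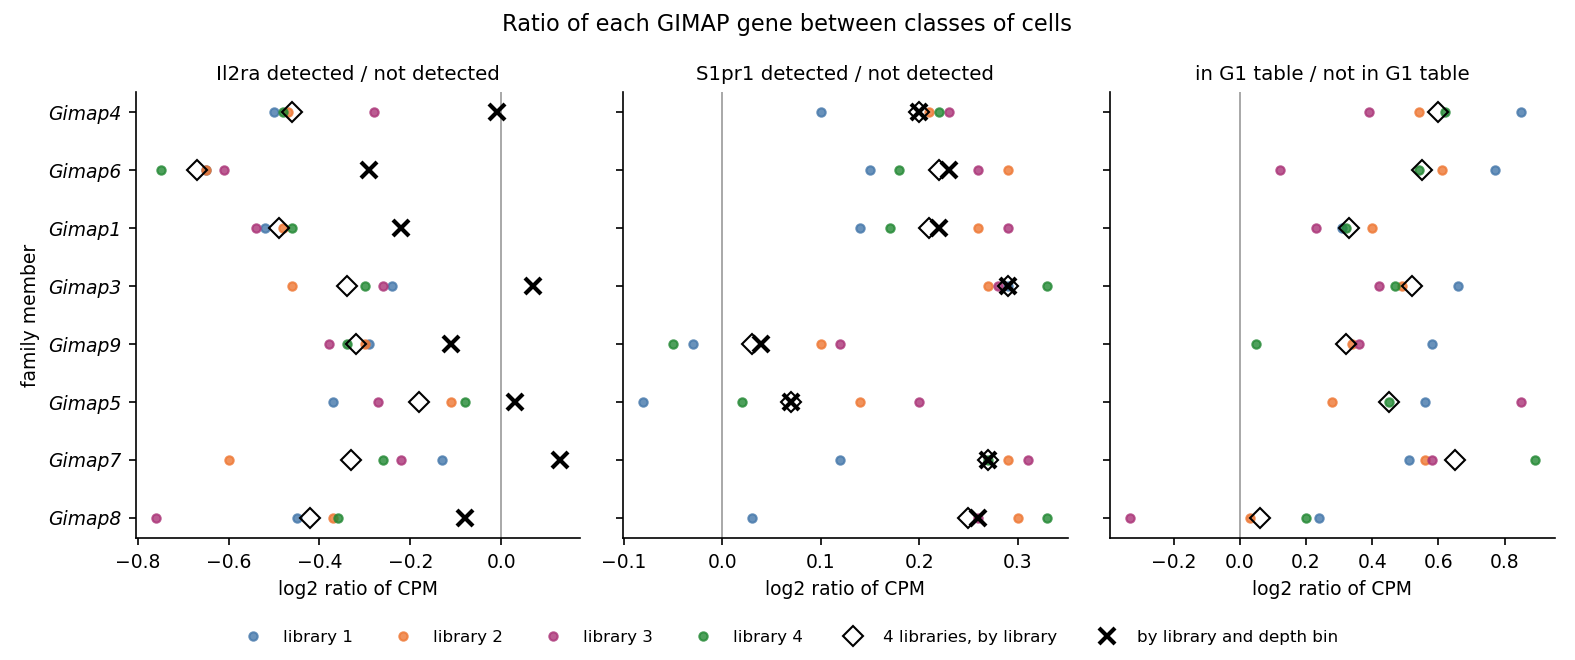
Log2 ratio of CPM for each member between cells with and without Il2ra (left), with and without S1pr1 (middle), and in and not in the G1 table (right). Dots are libraries, diamonds the ratio stratified by library, crosses the ratio also stratified by depth bin. The crosses of the left panel lie farthest from 0 for Gimap6 (-0.29) and Gimap1 (-0.22), while in the middle panel crosses and diamonds nearly coincide.

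Crossing both genes gave 4 classes. Pooled over libraries, the family stood at 1919 CPM in cells with both RNAs, 1597 CPM with Il2ra alone, 2724 CPM with S1pr1 alone and 2550 CPM with neither. Cells with Il2ra alone were the lowest in each library, at 1534, 1472, 1990 and 1768 CPM. Cells with S1pr1 alone were the highest in libraries 1, 2 and 4, at 2310, 2380 and 2792 CPM. In library 3 the 50 cells with both stood at 3647 CPM (3361 to 3951), beside 3542 CPM (3464 to 3621) with S1pr1 alone, and the intervals overlapped. Cells with Il2ra were deeper in every library, which goes with lower CPM as above. By the number of Il2ra UMIs (0, 1, 2, 3 and 4 or more), the family stood at 2247, 1788, 1633, 1591 and 1382 CPM in library 1. It stood at 2290, 1669, 1703, 1703 and 1474 CPM in library 2 and at 2662, 1956, 1973, 1918 and 1809 CPM in library 4. The step between 0 and 1 was thus the largest in these libraries, and libraries 2 and 4 hardly changed between 1 and 3. Library 3 had 3296, 2590 and 2406 CPM at 0, 1 and 2, with 4 cells beyond. By S1pr1 UMIs, the level was 1855, 1802, 2984 and 2212 CPM at 0 in libraries 1 to 4, then 1994, 2132, 3544 and 2474 CPM at 1 and 2026, 2054, 3501 and 2528 CPM at 4 or more.

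**Figure D3:**
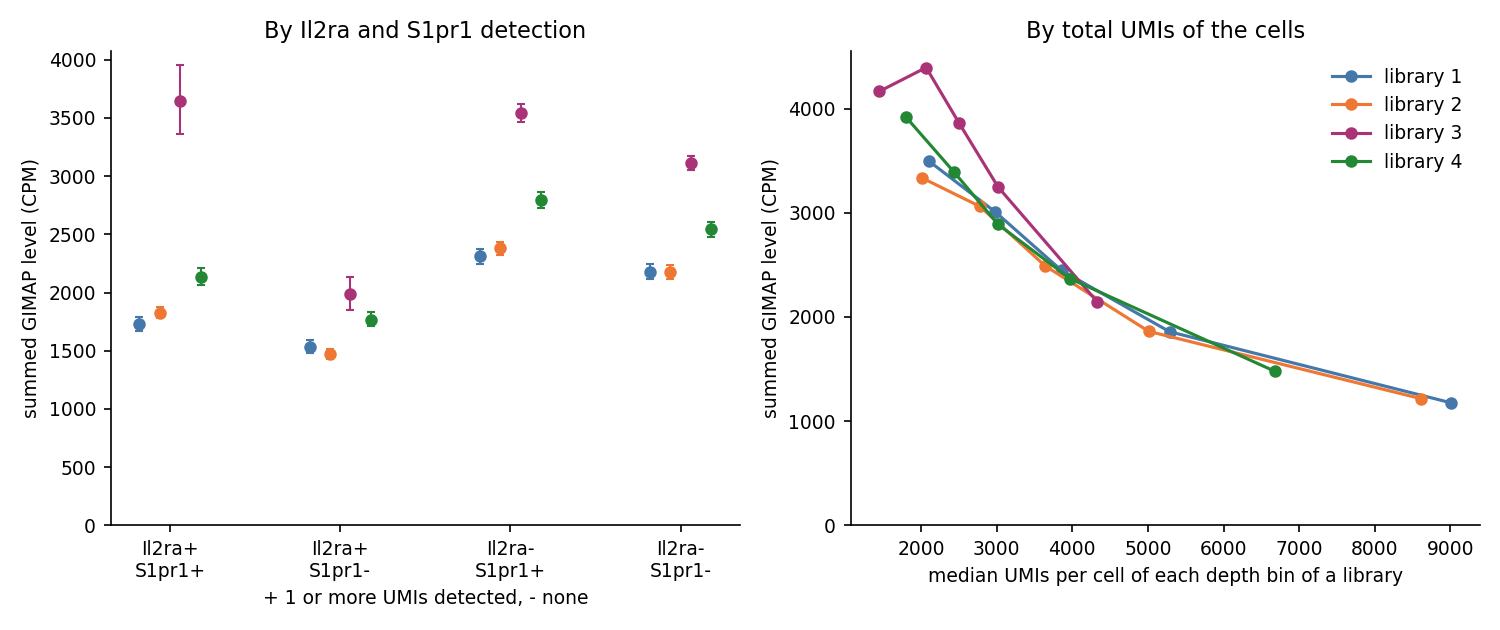
Left, summed GIMAP CPM in the 4 classes of cells by Il2ra and S1pr1 detection, per library, with 95% Poisson intervals; cells with Il2ra but not S1pr1 are the lowest in each library (1472 to 1990 CPM). Right, summed GIMAP CPM of each depth bin of a library against the median UMIs of its cells: from left to right all 4 libraries run down, except that the shallowest bin of library 3 lies below its next one, to 1176 CPM in the deepest bin of library 1 and 2143 CPM in that of library 3.

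The authors' normalized table holds 7231 cells that it calls G1, the phase before DNA replication, and leaves out 1042 of the 8273. The family stood at 2087, 2083, 3275 and 2460 CPM in the cells of that table, against 1360, 1499, 2642 and 1793 CPM in the other cells, a log2 ratio of 0.48 (0.45 to 0.51). Gimap4 rose (called, log2 ratio 0.60, 0.53 to 0.67), with 446, 477, 858 and 576 CPM in the G1 table, against 247, 327, 654 and 373 CPM outside it. Gimap7 rose too (0.65, 0.46 to 0.84), and 3.13% of all genes were called higher. Without library 1 or library 4 the count was 1 member called, and without library 3 it was 3. In all, 7 of 8 members were higher in 4 of 4 libraries, against 20.3% of genes. Gimap8 was the exception at 0.06 (-0.15 to 0.27), lower in library 3. The RNA of the cells outside the table was rich in proliferation markers: these summed to 87.4 CPM in the G1 table and 3019 CPM outside it, and all 7 were called lower in the table (7.57% of all genes). That sum weights deep cells more, and the share of dividing cells outside the table was not counted. With dividing cells left out of both sides, the summed log2 ratio was 0.02, no member was called, and Gimap8 stood at -0.55. In library 3, where few cells divided, the cells outside the table were shallow (median 1470 UMIs, against 2592 in it) with more mitochondrial RNA (4.71%, against 2.11%).

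Other genes of the same setting, taken as lists, moved as follows in these splits. Of 17 late maturation and egress genes tested, 5 fell in cells with Il2ra (S1pr1, Klf3, Foxo1, Ly6a and Ly6c1) and none rose (median log2 ratio -0.28, all genes -0.03, of which 2.97% were called lower), and in cells with S1pr1 1 of 16 rose (Klf3, 1.55-fold) and none fell (median 0.28, all genes 0.00). The GIMAP sum thus lay on the side of that list's median in both splits. So did the medians of the quiescence factors below (-0.38 and 0.21) and of 4 T cell genes tested (-0.36 and 0.07). The shared side was therefore not particular to egress genes, and the list ratios were not matched for depth. Klf2, the factor that drives S1pr1, was at 0.903-fold in cells with Il2ra and 1.38-fold in cells with S1pr1, neither called. Of 10 genes induced by IL-2 and STAT5, 5 rose in cells with Il2ra (median 0.64, beside 4.03% of all genes called higher), led by Socs2 at 4.58-fold and Gadd45b at 2.46-fold. Of 13 genes induced by the T cell receptor, 6 rose and 1 fell in cells with Il2ra, and 6 fell in cells with S1pr1 (2.18% of all genes called lower), among them Nr4a3 at 0.322-fold and Cd83 at 0.383-fold. Of 12 quiescence factors, 4 fell in cells with Il2ra (Satb1, Tcf7, Klf3 and Foxo1; median -0.38, all genes -0.03, of which 2.97% were called lower). Klf3 and Foxo1 are also in the late maturation list and Satb1 in the immature thymocyte list. Of 10 immature thymocyte genes, 4 fell in cells with Il2ra (Cd8a, Cd8b1, Ccr9 and Satb1; median -0.37) and 5 in cells with S1pr1 (median -0.56), led by Dntt at 0.172-fold. Of the 425 Dntt UMIs, 369 lay in a cluster of 99 double-positive thymocyte-like cells described below, of which 3.03% had S1pr1. So did 325 of the 509 Cd8a UMIs. Cd8b1, Cd24a and Arpp21, also called lower with S1pr1, are among the genes that lead that cluster. The Dntt and Cd8a ratios by S1pr1 thus rest largely on those few cells, and the part of these cells in the other ratios was not tested.

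Among reported partners of GIMAP proteins, the BCL2 family relative Bcl2l1, which blocks cell death, was the single gene of 8 called in cells with Il2ra, where it rose 3.06-fold, and in cells with S1pr1, where it fell to 0.434-fold. Bcl2 was at 1.00-fold and 1.30-fold, and Gabarapl2, the partner of Gimap6, at 0.863-fold and 1.12-fold in the same splits, none called. GTPases of another kind, the interferon-induced GBP and IRG families, were set beside the GIMAP genes. By S1pr1 none of 15 was called, as none of the 8 GIMAP genes was, and their median log2 ratio was 0.05; the difference between the families was not tested. By Il2ra their median was -0.43 with 1 of 15 called lower (Gbp9), and 5 of 15 rose in the cells of the G1 table (median 0.51, beside 3.13% of all genes called higher), led by Tgtp1 at 1.99-fold and Iigp1 at 1.90-fold.

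Within cells the members were found together more often than their separate shares would give if independent. Co-detection was taken as the odds ratio of 2 members having a UMI in the same cell, stratified by library and depth bin so that deep cells alone do not give it. All 28 pairs had a log2 odds ratio above 0, with a median of 0.45, and 24 pairs were above 0 in each of the 4 libraries. The highest was Gimap3 with Gimap4 at 1.15: Gimap4 was found in 82.3% of cells with Gimap3 and in 67.1% of cells without it. Gimap1 with Gimap6 (1.08), Gimap3 with Gimap6 (1.00), Gimap4 with Gimap6 (0.98) and Gimap4 with Gimap7 (0.95) came next. Gimap3 and Gimap4 are not neighbours in the locus, and the 7 pairs that are ran between 0.28 (Gimap8 with Gimap9) and 0.98 (Gimap4 with Gimap6). The lowest were Gimap1 with Gimap8 at 0.11, above 0 in 2 of 4 libraries, and Gimap5 with Gimap7 at 0.15. After thinning to 1811 UMIs the median was 0.48 and all 28 stayed above 0 (0.06 to 0.96).

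Genes outside the family show how these values sit. Paired with members, Klf2 gave 0.07 (Gimap8) to 1.00 (Gimap3), and the T cell receptor chain gene Cd3e 0.06 (Gimap9) to 0.50 (Gimap6), so co-detection was not particular to GIMAP pairs. S1pr1 gave 0.65 with Gimap6, 0.60 with Gimap1 and 0.58 with Gimap3, but 0.08 with Gimap9. Il2ra gave -0.66 with Gimap6 and -0.29 with Gimap1, against 0.18 with Gimap3 and Gimap7. Dntt, the terminal transferase of immature thymocytes, gave -2.50 with Gimap4 and -1.95 with Gimap3, against 0.50 with Gimap9. Of all cells, 26.4% held 5 different members, 1.17% (97 cells) held none and 0.689% (57 cells) held all 8. Of the 97 cells with none, 45.4% were in the G1 table, against 87.9% of the cells with a GIMAP UMI, and their median total was 2097 UMIs, against 3149.

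**Figure D4:**
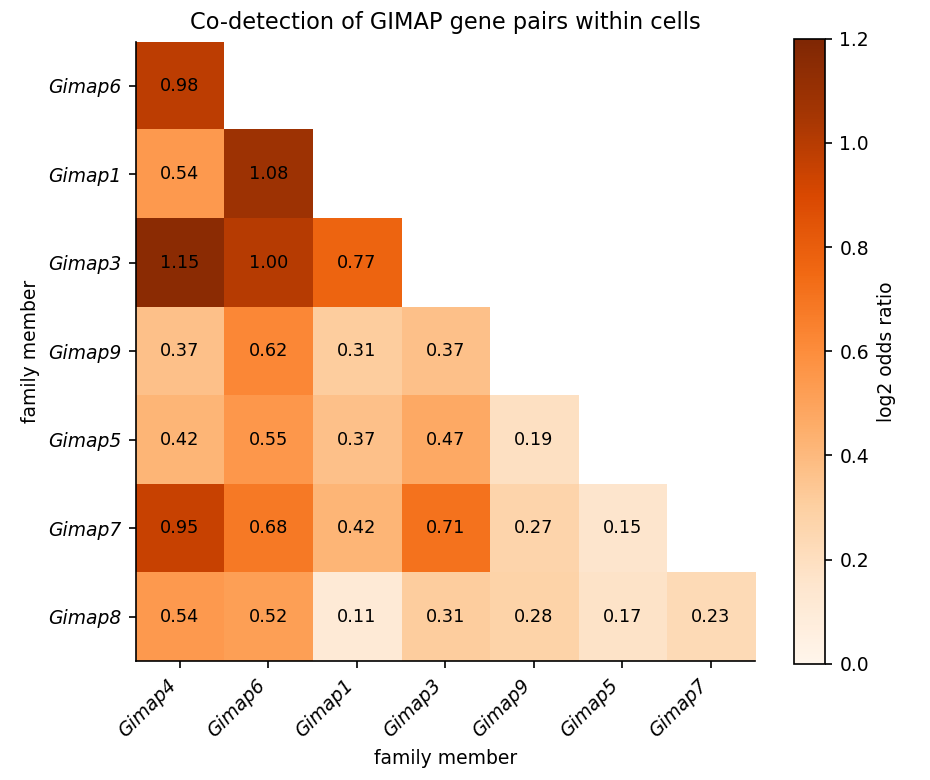
Log2 odds ratio that both members of a pair have a UMI in the same cell, stratified by library and depth bin. All 28 values are above 0, from 0.11 (Gimap1 with Gimap8) to 1.15 (Gimap3 with Gimap4), and the upper left corner (Gimap4, Gimap6, Gimap1 and Gimap3, the abundant members) is the darkest.

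A small set of cells carried a different GIMAP pattern. Both Cd8a and Dntt, RNAs of thymocytes not yet past the CD4+ CD8+ stage, had a UMI in 63 cells, although the sort took CD8- cells. In these the family stood at 966 CPM (836 to 1111), against 2285 CPM in the other 8210 cells, with 92.1% against 98.9% of cells holding a member and a median depth of 1970 against 3148 UMIs. The sum was lower in libraries 2, 3 and 4 (752, 811 and 992 CPM, against 1976, 3246 and 2372 CPM), but not in library 1, where 6 such cells had 2030 CPM, against 1943 CPM. The members did not go together. Gimap9 stood at 250 CPM (186 to 329), against 182 CPM (177 to 186), and Gimap1 at 260 CPM and Gimap6 at 280 CPM, against 454 and 511 CPM. In all cells with fewer than 2000 UMIs, Gimap9 stood at 177, 215, 316 and 321 CPM in libraries 1 to 4. The Gimap9 level of the 63 cells lay within that range. Their pooled level weights the deeper of them more, however, and in all cells with 3000 to 4000 UMIs Gimap9 was lower. It stood there at 186.5, 202.9, 169.0 and 215.3 CPM. Whether Gimap9 was raised beside cells of like depth was not tested. Gimap4 and Gimap3 each had 12 UMIs, or 58.9 CPM (30.4 to 103), against 533 and 364 CPM. Gimap5 and Gimap7 had 5 UMIs each and Gimap8 had 2. Gimap3 was found in 9.52% of these cells (3.58 to 19.6, exact binomial), against 69.3% of the others. Free RNA in droplets can add UMIs of any gene to a cell; its part in these shares was not tested.

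Shares of the family's own total do not depend on the rest of the RNA. Gimap9 held 25.9% of GIMAP UMIs in these 63 cells (19.9 to 32.6), against 7.95% in the others, and Gimap4 held 6.09% (3.19 to 10.4), against 23.3%. Gimap6 (28.9%), Gimap1 (26.9%) and Gimap9 led the family in these cells, with intervals that overlap, in place of Gimap4, Gimap6 and Gimap1 over all cells.

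Clustering of the cells, without GIMAP genes, Il2ra or S1pr1 among the genes used, gave 9 clusters, and their GIMAP levels are given as a description. Cluster 9 (99 cells) met 7 of 7 thymocyte markers and is called double-positive thymocyte-like; it holds 60 of the 63 cells with Cd8a and Dntt. It had 1037 CPM of GIMAP RNA, with Gimap6 at 345 CPM, Gimap1 and Gimap9 at 242 CPM, and Gimap3 at 50.1 CPM. Gimap9 held 23.3% of its GIMAP UMIs. Cluster 4 (1024 cells), led by the interferon-induced genes Ifit3b, Ifit3 and Rsad2, had 3720 CPM pooled over libraries, and cluster 1 (2380 cells), with S1pr1 at 320 CPM and Il2ra at 27.0 CPM, had 3588 CPM. That order was seen within library 3 alone, which held 560 of the cells of cluster 4: there cluster 4 had 3970 CPM and cluster 1 3720 CPM, while in libraries 1, 2 and 4 cluster 4 had 3317, 3349 and 3576 CPM and cluster 1 had 3343, 3451 and 3704 CPM. The range of cluster 1 over libraries was narrower than the 1944 to 3218 CPM over all cells. Of the 2037 cells of library 3, 856 were in cluster 1.

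Cluster 2 (2098 cells), which met 6 of 9 markers of the Treg list and had Il2ra at 255 CPM, had 2376 CPM of GIMAP RNA. Foxp3 itself was at 19.3 CPM there and 17.7 CPM in cluster 4, with overlapping intervals. All cells were sorted by the Foxp3 reporter, so the markers do not set this cluster apart as the Treg cells. Cluster 6 (410 cells), led by the T cell receptor response genes Egr2 and Nr4a3, had 2696 CPM, with Gimap5 at 177 CPM. Cluster 3 (1404 cells) had 1225 CPM and the dividing cluster 5 (448 cells; 7 of 7 proliferation markers) 1256 CPM, and both were deep (median 4715 and 9786 UMIs). Cluster 3 stays unnamed, since the haemoglobin genes that lead it come from a single cell. Between the highest and lowest of the 6 clusters with at least 400 cells, clusters 4 and 3, the pooled log2 ratio was 1.60. Without library 3 it was 1.61, with cluster 1 the highest. Clusters 1 and 4 were the shallowest of these 6 (median 2415 and 2588 UMIs), and the ratio was not matched for depth. Cluster 8 (189 cells), led by S100a6 and Lgals3, had 1662 CPM with another order again: Gimap1 was first at 452 CPM, Gimap6 had 382 CPM and Gimap4 233 CPM, and Gimap5 at 184 CPM held 11.0% of the GIMAP UMIs (9.58 to 12.6), against 5.30% over all cells. Cluster 7 (221 cells; median 1519 UMIs, 5.47% mitochondrial) had 2563 CPM and is not named.

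**Figure D5:**
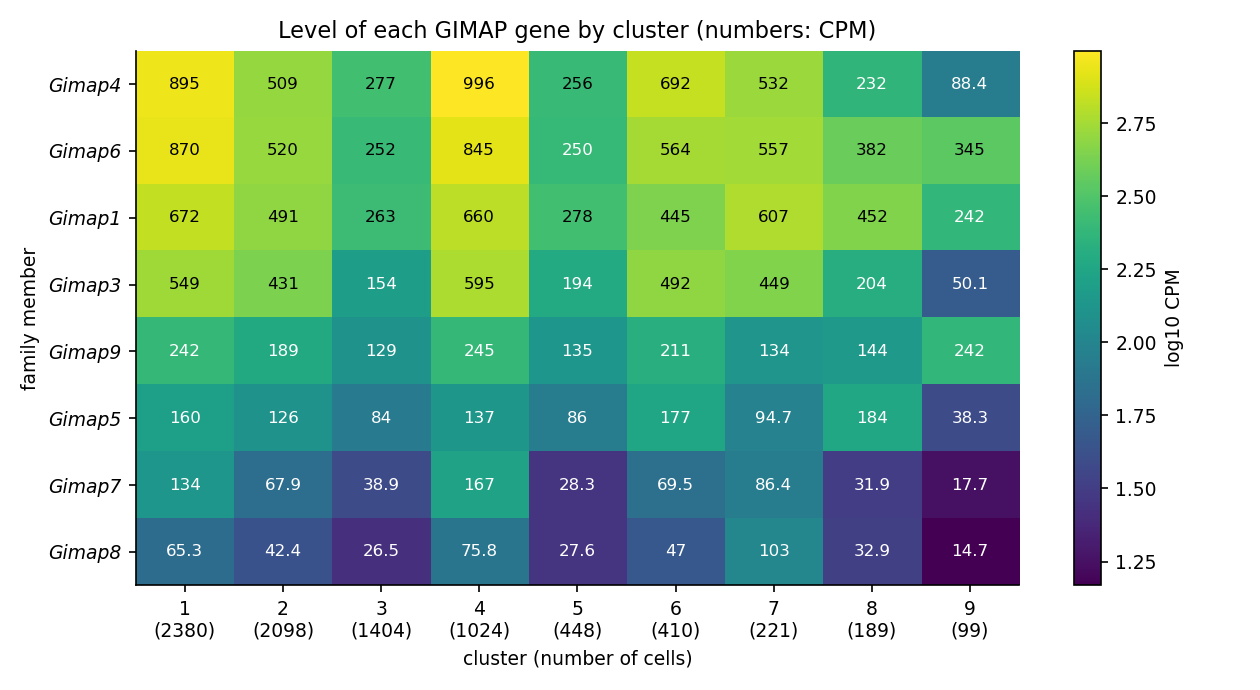
CPM of each member in the 9 clusters (cells in brackets; colour on a log10 scale). Clusters 1 and 4 are the highest for every member but Gimap5 and Gimap8. Gimap5 is higher in clusters 8 and 6 (184 and 177 CPM), and Gimap8 in cluster 7 (103 CPM). In cluster 9 Gimap4 and Gimap3 (88.4 and 50.1 CPM) drop out of the top rows while Gimap9 (242 CPM) is as high as in cluster 1.

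Across the 16 points made by library and by Il2ra and S1pr1 detection, the genes most like the GIMAP sum among 8061 genes were Slfn1 (Pearson's r 0.972 on log2(CPM + 1)), Pnrc1 (0.968), Sf3b1 (0.965), H2-T22 (0.963), Npc2 (0.962), Ms4a4b (0.961), Cd27 (0.959), Camk4 (0.957), Ifi213 (0.955) and Fyb (0.955). The points share libraries and depth differences, so r is a description. Slfn1, a Schlafen gene tied to T cell quiescence, ran between 98.0 and 271 CPM over these points, and Cd27, a costimulatory receptor, between 373 and 659 CPM. Each member set against the sum of the other 7 gave r of 0.951 for Gimap3, 0.942 for Gimap4, 0.935 for Gimap6, 0.927 for Gimap8, 0.917 for Gimap9, 0.888 for Gimap1, 0.848 for Gimap7 and 0.706 for Gimap5, the member least like the rest.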

How the data were processed

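Single-cell 3' libraries were made by the submitters on a Chromium instrument with v2 chemistry, per the labels' protocols, and processed with CASAVA 2.20, Cell Ranger 2.0.2 and R 3.4.1 on the mm10 build, per the submitters' processing notes; no source used here states the cell filter. The authors deposited a table of UMI counts (whole numbers, 27998 genes, 8273 cells, 795 to 32737 UMIs per cell) and a table of log2 values for 9571 genes in 7231 cells. Tested against the counts, a deposited log2 value of a member was the log2 of the count over 1 factor per cell, plus 1 (largest deviation 5.6e-14).

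Symbols came from GENCODE M21 (27645 identifiers). The barcode suffix was taken as the library, and libraries were left unassigned, so no genotype was compared. CPM is UMIs per 1000000; CPM have exact Poisson intervals and shares exact Clopper-Pearson intervals (95%), for counting error only. Ratios between classes of cells are Mantel-Haenszel ratios over libraries with 0.5 UMIs added. A gene with at least 200 UMIs was called at 1.5-fold with its interval off 0 and the same direction in every library with at least 20 cells a side. Since cells of a library are no replicates, no p-value is given. Thinning drew 1811 UMIs (the 10th percentile) from each of 7447 cells. Doublets were not called; leaving out the 2% of cells with the most UMIs was an alternative. Proliferating cells had 2 or more UMIs over 7 marker genes.

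On simulated counts for the Il2ra split (8070 genes), the rule called 95.5% of genes changed 3-fold, 91.0% changed 2-fold, 38.8% changed 1.5-fold and 0.0254% of unchanged genes. The simulated counts held counting error only, with no spread between cells and no shift with depth. These shares therefore do not say how often depth or spread between cells gives a call in the real split. Clusters were made with scanpy 1.11.5 (counts scaled to 10000, 2000 variable genes, 30 components, 15 neighbours, Leiden resolution 0.6). The members, lists and tests were chosen with earlier results of these data known. Genes named besides the members are Il2ra, S1pr1, Foxp3, Cd4 and Cd8a, the 10 most like the GIMAP sum, up to 4 per list with the largest ratio, and genes of counts under 6; Klf2, Bcl2, Gabarapl2, Cd3e, Dntt, Ikzf2, Tnfrsf18 and cluster-leading genes were named after their values were seen.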

Additional observations from a re-analysis of the deposited data

Results flagged for a closer look

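In 38 sets of 4 libraries, 5 had a highest or lowest library whose gap to the next, over the whole range, passed Dixon's 95% critical value for 4 samples. Chance flags about 1 in 20 sets, and the libraries are unassigned, so no condition can be read from these. Il2ra stood at 31.13 CPM in library 3, against 158 to 181 CPM in the others. S1pr1 stood at 228.2 CPM in library 3, against 173 to 181 CPM. The log2 ratio of Gimap4 between cells with and without Il2ra was -0.28 in library 3, against -0.50 to -0.47. That of the GIMAP sum was -0.41 there, against -0.47 to -0.46. For the sum the gap over the range was 0.833, just past the critical value, so this flag rests on the rounding. Library 3 had 139 cells with Il2ra. The log2 ratio of Gimap4 between cells with and without S1pr1 was 0.10 in library 1, against 0.21 to 0.23.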

How the results depend on the processing

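The summed GIMAP log2 ratio between cells with and without Il2ra (-0.46) was -0.15 after thinning, -0.10 within depth bins, -0.39 without the 2% deepest cells, -0.39 once proliferating cells were dropped, -0.41 when cells had equal weight and -0.51 with detection at 2 or more UMIs; the count of members called (1) was 0 after thinning and within depth bins. Over all alternatives of that split, 105 of 112 member ratios were below 0 and 6 above, these 6 all after thinning or within depth bins (Gimap3, Gimap5 and Gimap7). For S1pr1 (0.21) the sum was 0.29 after thinning and 0.15 with each cell counted alike, and all 112 member ratios were above 0 (0.01 to 0.44). For the G1 table (0.48, 2 members called) the sum was 0.54 without mitochondrial and ribosomal protein genes in the total, 0.42 thinned, 0.23 within depth bins, 0.31 without the 2% deepest cells, 0.02 once proliferating cells were dropped and 0.38 when cells had equal weight. Its count of called members was 0 after thinning, within depth bins, without the 2% deepest cells and without proliferating cells, and 1 with a cell filter (500 genes or more, mitochondrial share up to 10%), without cells with Cd8a and Dntt, and with each cell counted alike.

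The highest over the lowest library (log2 0.73) was 0.59 once proliferating cells were dropped and 0.58 when cells had equal weight. The median co-detection (0.45) was 0.53 stratified by library only and 0.63 with detection at 2 or more UMIs. The highest over the lowest cluster (1.60) was 1.73 at Leiden resolution 1.0, 1.65 without mitochondrial and ribosomal protein genes in the total and 1.52 with each cell counted alike. Leaving out each library in turn gave -0.47 to -0.45 with 1 member called for Il2ra, 0.19 to 0.23 with 0 called for S1pr1, 0.43 to 0.51 with 1 to 3 called for the G1 table, 0.41 to 0.48 for co-detection and 1.55 to 1.63 for the clusters.

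No paired analysis was possible because each genotype has 1 sample and no library is tied to a sample. Depth limits Gimap7 and Gimap8 most, found in 23.4% and 15.8% of cells. The cause of these shifts was not tested.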
